A study of Homo sapiens with 15 samples.

Results

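The genes described here are 10 established transcriptional targets of FOXO proteins, IRS2, INSR, PIK3IP1, RICTOR, PDK4, TXNIP, SESN1, CITED2, BCL6 and FBXO32. They were listed by symbol among 37787 genes in the table of gene counts, by a rule that uses no measured value but was proposed with earlier results of these data known, and all 10 were among the 13868 genes with enough reads to be tested. The question was whether these genes respond when a constitutively active FOXO1 is added to human granulosa cells that carry SMAD3 with either the wild-type or the mutant form of FOXL2. In the main edgeR test none of the 10 was called (adjusted p under 0.05) with added FOXO1. Of all genes tested 0.0505% were called there in the wild-type and 0.714% in the mutant setting. Over 9 alternative ways of processing, TXNIP was called lower under 5 in the wild-type setting. IRS2 was called lower under 3 of the 9 in the mutant setting. With the mutant FOXL2 and no FOXO1 4 of the 10 were called, where 14.7% of all genes were called against control cells and 11.2% against wild-type FOXL2.

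The cells were HGrC1, an immortalized line of human non-luteinized granulosa cells with normal FOXL2 alleles, used at passage 14, and 15 libraries of mRNA were sequenced with 75-base single-end reads. Each of the 5 conditions had 3 libraries, lettered A, B and C. Vectors cells received control plasmids. FOXL2WT cells received SMAD3 and wild-type FOXL2, and FOXL2C134W cells received SMAD3 and FOXL2 with the C134W change found in adult granulosa cell tumors. FOXL2WT+FOXO1 and FOXL2C134W+FOXO1 cells received the same plasmids together with FOXO1-3A, a FOXO1 whose AKT phosphorylation sites are replaced by alanine so that it stays in the nucleus. The plasmids were introduced by lipofection for 4 h and the cells were then held for 24 h without serum. All transgenes were expressed transiently from plasmids in a single line, the reads came from transfected and untransfected cells together, and the endogenous genes stayed in place. The methods speak of 15 lysed samples with 3 replicates a condition, but the sources used here do not say whether the replicates were separate transfections or were made on separate days, so the p-values measure the spread between these samples, which may be technical.

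FOXO proteins are transcription factors of the insulin pathway. When insulin or a growth factor activates PI3K and AKT, AKT phosphorylates FOXO and the protein leaves the nucleus, and when the pathway is quiet FOXO enters the nucleus, binds DNA with the core letters GTAAACA and raises genes for stress defence, catabolism, cell cycle arrest and insulin sensitivity. In granulosa cells FOXO1 is best known as a brake on proliferation and steroid synthesis that follicle-stimulating hormone relieves through AKT.

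The FOXO core was looked for in the promoters of these genes, because a member with a perfect match close to its start site is where a direct response might first be sought. The windows ran from 250 bases before to 50 bases after each start site, as given by RefSeq for build GRCh38.p14, and 9 of the 10 members had one, FBXO32 being the exception. GTAAACA, on either strand, was present in the window of 1 of the 9, TXNIP, and in 931 of 27305 windows of all genes, which is 3.41%. The shorter forkhead core TAAACA, which lies inside GTAAACA, was again present in TXNIP only among the 9 and in 12.42% of all windows. CAAAACA, the core of the insulin response sequence, was present in 1 of the 9, IRS2, and in 4.915% of all windows. The stretches around both matches are shown with the match in capitals, each read on the strand of the gene. The TXNIP match began 124 bases before the start site and the IRS2 match 40 bases before it, the latter on the opposite strand, so that it reads TGTTTTG.
TXNIP, chr1:145996671-145996730, minus strand: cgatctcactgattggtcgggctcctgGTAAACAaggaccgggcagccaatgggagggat
IRS2, chr13:109786591-109786650, minus strand: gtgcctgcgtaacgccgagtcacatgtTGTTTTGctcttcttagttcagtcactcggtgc
A match describes these letters only, and the absence of one in the other windows says nothing about FOXO binding elsewhere in those genes.

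The libraries held between 14962245 and 25339094 reads assigned to genes, and libraries of a condition differed by 2.21 to 8.65 times the sampling noise, so no pair was a repeat of another. The added genes were present as labelled. FOXO1 averaged 13.2 CPM (counts scaled to library size) in Vectors, 12.2 in FOXL2WT and 12.0 in FOXL2C134W, against 117 ± 14.5 (SD, n = 3) in FOXL2WT+FOXO1 and 43.2 ± 4.06 in FOXL2C134W+FOXO1, where reads of the plasmid and of the endogenous gene cannot be told apart. The same libraries differed in the RNA of the other transfected genes. With FOXO1, SMAD3 fell by 1.51 on the log2 scale in the wild-type setting and by 1.11 in the mutant setting. Over all alternatives these changes reached -1.78 and -1.73. FOXL2 fell by 0.55 in the wild-type setting, with changes between -0.58 and -0.53 in every fit. Its call was kept under all 9 alternatives but lost without any of the 6 libraries. FOXL2C134W had less RNA of both genes than FOXL2WT, as FOXL2 fell by 1.93 and SMAD3 by 1.72. These are RNA levels. The paper describes the protein of both FOXL2 forms and of FOXO1 as balanced, by immunoblot of samples cultured in parallel. Every effect of FOXO1 or of the mutation given here comes with these shifts in SMAD3 and FOXL2 RNA, and they cannot be told apart. Of 14 granulosa cell markers 9 were tested, with KRT8, KRT18 and GATA4 well expressed, FOXL2 at 3.83 TPM (reads scaled to transcript length and library size) in Vectors, FSHR listed at 0 in every library, and CYP19A1 and AMHR2 near 0. Among markers of other cell types LHCGR was listed at 0 throughout and PTPRC did not average above 0.0910 TPM in any condition. The summed epithelial markers, almost all of it KRT19, were 437 to 477 TPM in Vectors and between 344 and 429 TPM in the other conditions, and the summed leukocyte markers, almost all of it CD68, were 107 to 133 TPM in Vectors and 93.0 to 117 TPM elsewhere. The summed endothelial markers were 4.97 to 6.12 TPM in Vectors against 3.23 to 4.41 TPM in FOXL2C134W, where 1 of 4 was called lower, KDR at -0.50. In FOXL2C134W against Vectors, 1 of 3 tested epithelial and 1 of 2 tested leukocyte markers were also called lower. Of all genes 7.24% were called lower and 7.48% higher there. The summed granulosa markers were 4094 to 4252 TPM in Vectors against 4436 to 4555 TPM in FOXL2C134W, where 2 of 9 were called higher, KRT18 and the transfected FOXL2. This sum includes the keratins KRT8 and KRT18 and the transfected FOXL2, so it is not a measure of granulosa identity. In bulk RNA of this kind fewer cells of a type and less RNA per cell cannot be told apart, and the part of these markers in the results was not tested.

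The members covered a wide range of expression. Per transcript length, CITED2 was the most abundant, with a median of 132 TPM over the 15 libraries, followed by TXNIP at 71.7 TPM, and the ranges of these genes overlapped neither each other nor that of the next member. RICTOR, BCL6, SESN1, FBXO32, IRS2, PIK3IP1 and INSR followed at medians of 13.9, 8.57, 6.16, 4.92, 4.45, 2.96 and 1.08 TPM, and each overlapped its neighbour in that order. PDK4 was lowest at 0.388 TPM, below the range of INSR, and rested on only 9 to 33 reads a library. Across conditions, the highest mean CPM exceeded the lowest by 1.89-fold for PDK4, 1.87-fold for PIK3IP1, 1.66-fold for FBXO32, 1.46-fold for IRS2 and 1.37-fold for TXNIP, and by 1.21-fold or less for SESN1, CITED2, INSR, BCL6 and RICTOR. For PDK4 that span stood beside a mean coefficient of variation of 27.1% within conditions, against 4.11% for TXNIP.

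**Figure D1:**
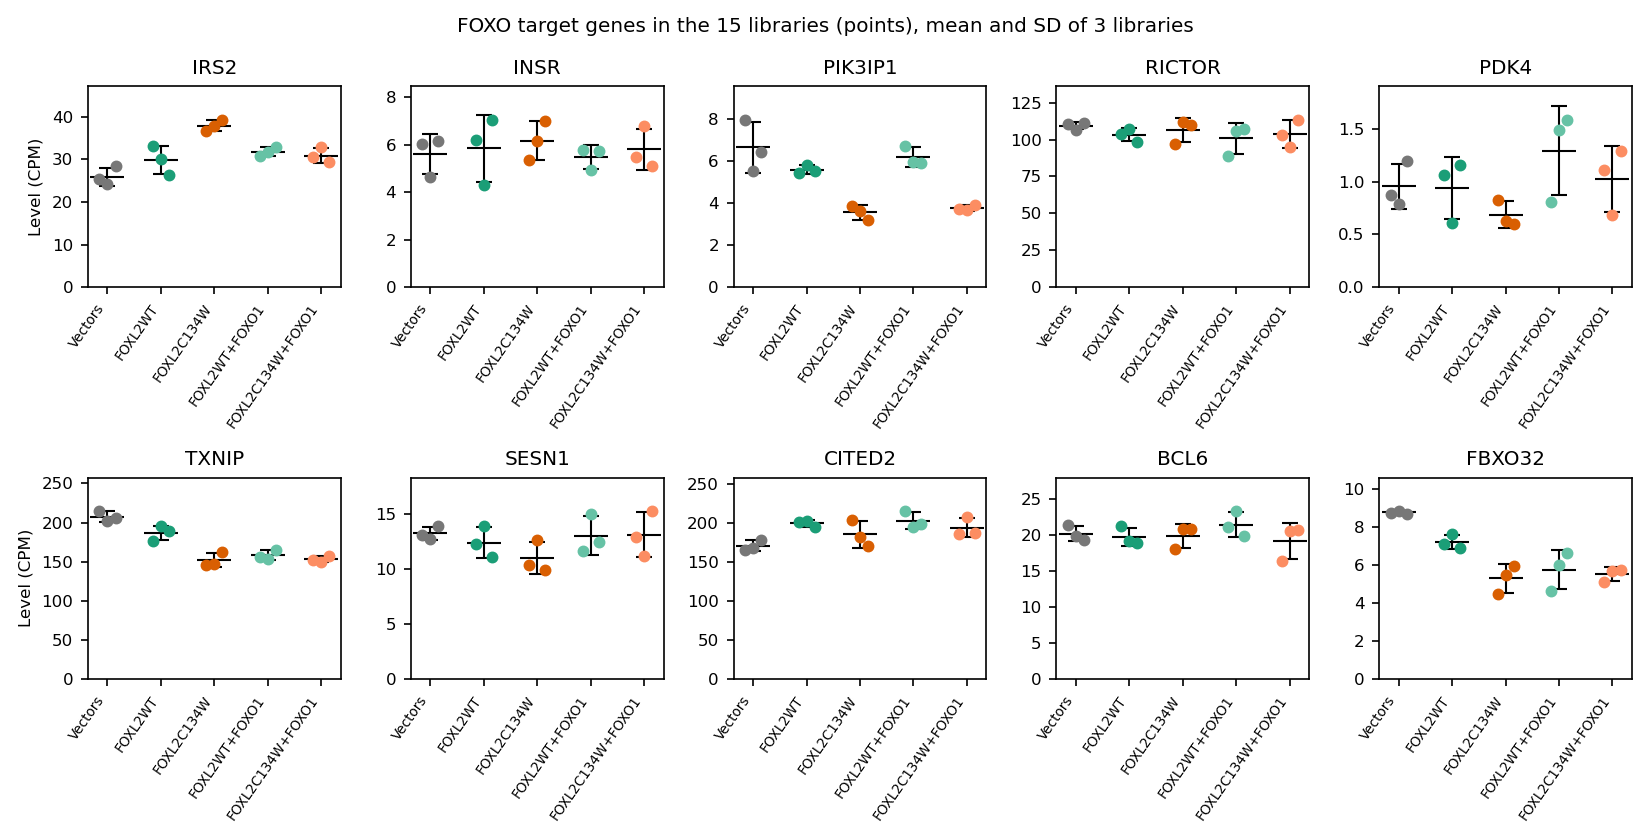
Level of each of the 10 FOXO target genes in CPM, on axes that start at 0, in the 3 libraries of each of the 5 conditions (points), with the mean and SD of the condition (horizontal mark and bars). TXNIP and FBXO32 are highest in Vectors, PIK3IP1 is lowest in both FOXL2C134W conditions, and IRS2 is highest in FOXL2C134W.

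Added FOXO1 was first compared in the wild-type setting, FOXL2WT+FOXO1 against FOXL2WT. None of the 10 members was called at an adjusted p under 0.05, where 0.0505% of all genes tested were called, 7 in all. At an unadjusted p under 0.05 there were 2 of the 10 members, TXNIP and FBXO32, and 1266 of the 13868 genes, and both members were lower with FOXO1. DESeq2 called 1 member, TXNIP, and 63 genes. The members had a median log2 change of 0.06 beside 0.00 for all genes, with 6 of 10 above 0.

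TXNIP, a thioredoxin-binding protein that restrains glucose uptake, came closest to a call. Its level was 177, 195 and 189 CPM in FOXL2WT and 156, 153 and 165 CPM in FOXL2WT+FOXO1. All libraries with FOXO1 lay below all libraries without it, yet the shift of -0.24 ± 0.05 (log2, SE), 0.847-fold, had an adjusted p of 0.0999 in edgeR's quasi-likelihood test. This is the gene whose promoter window holds the FOXO core, as do 3.41% of all windows. Its measured level with active FOXO1 was lower in this setting and differed by 0.01 in the mutant setting. The part of the match in this was not tested. The adjusted p of 0.0999 is close to the threshold, since DESeq2 gave 0.0020 and a correction for gene length in edgeR gave 0.030. The range over all alternatives was 0.00037 to 0.61. TXNIP was called lower under 5 of 9 alternatives, and in 0 of 6 fits that left out 1 library. FBXO32, a ubiquitin ligase subunit that FOXO raises in wasting muscle, had 7.13, 7.65 and 6.92 CPM in FOXL2WT and 4.64, 5.99 and 6.64 CPM in FOXL2WT+FOXO1, which did not overlap. Its log2 difference was -0.31 ± 0.13 with an adjusted p of 0.492, and it counted 69 to 218 reads a library.

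In the insulin pathway the same comparison gave small differences. IRS2, the adaptor that carries the insulin signal from the receptor to PI3K, stood at 33.1, 30.1 and 26.4 CPM in FOXL2WT and at 30.7, 31.7 and 32.8 CPM in FOXL2WT+FOXO1, and the libraries overlapped. Its log2 difference was 0.10, with a 95% confidence interval of -0.07 to 0.26 and an adjusted p of 0.749. PIK3IP1, a membrane protein that inhibits PI3K, had 5.43, 5.84 and 5.51 CPM without and 6.73, 5.94 and 5.92 CPM with FOXO1, a log2 difference of 0.14 with an adjusted p of 0.781 although the libraries did not overlap. INSR, the insulin receptor itself, and RICTOR, the subunit that defines mTOR complex 2, differed by -0.13 and -0.03. For the remaining members, PDK4, CITED2, SESN1 and BCL6, the differences were 0.45, 0.03, 0.09 and 0.12, and the libraries of both conditions overlapped for each.

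In the mutant setting, FOXL2C134W+FOXO1 against FOXL2C134W, again none of the 10 members was called, where 0.714% of all genes were called, 99 genes. At an unadjusted p under 0.05 there were 1 of the 10 members, IRS2, and 1557 genes, and DESeq2 called 1 member, again IRS2, and 215 genes. The median over the members was 0.04 beside 0.00 for all genes, with 6 of 10 above 0. IRS2 had 36.7, 37.8 and 39.4 CPM in FOXL2C134W and 30.5, 32.9 and 29.3 CPM in FOXL2C134W+FOXO1. The 3 libraries with FOXO1 all lay below the others, with a log2 difference of -0.30 ± 0.07 and an adjusted p of 0.0742, and DESeq2 gave an adjusted p of 0.031. As for TXNIP above, the measured direction was down, although FOXO1 is known to raise IRS2 in liver. Without FOXL2C134W replicate A or FOXL2C134W+FOXO1 replicate B, IRS2 passed the threshold, with adjusted p-values of 0.044 and 0.040, within a range of 0.0051 to 0.33 over all alternatives. IRS2 was called lower under 3 of the 9 alternatives.

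The other members showed no such separation in the mutant setting. SESN1, a stress protein that restrains mTOR complex 1, had 10.4, 12.7 and 9.91 CPM without and 12.9, 11.2 and 15.3 CPM with FOXO1, and its difference of 0.25 had an interval of -0.01 to 0.51 and an adjusted p of 0.458. PDK4, the kinase that shuts pyruvate dehydrogenase in fasting, had 0.831, 0.627 and 0.599 CPM without and 1.11, 0.682 and 1.29 CPM with FOXO1. Its difference of 0.57 was the highest among the members, but the interval ran from -0.15 to 1.29 and the libraries overlapped. TXNIP differed by 0.01, with an interval of -0.09 to 0.11, and FBXO32 and PIK3IP1 differed by 0.07 and 0.08. INSR, CITED2, BCL6 and RICTOR had differences of -0.08, 0.06, -0.05 and -0.03.

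The intervals of the main edgeR fit bound the mean difference over transfected and untransfected cells together. They do not bound the response of the transfected cells alone. In both settings the upper end of the 95% interval lay below a 1.5-fold rise for 9 of the 10 members, and the lower end lay above a 1.5-fold fall for all 10. The exception was PDK4, whose intervals reached 1.15 on the log2 scale in the wild-type and 1.29 in the mutant setting, so that rises from 1.5-fold up to these ends lay within them. At the lower end FBXO32 came close to the 1.5-fold limit in the wild-type setting, at -0.57, and its estimate itself reached -0.57 under an alternative. The wild-type and mutant settings rest on different control libraries, FOXL2WT and FOXL2C134W.

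**Figure D2:**
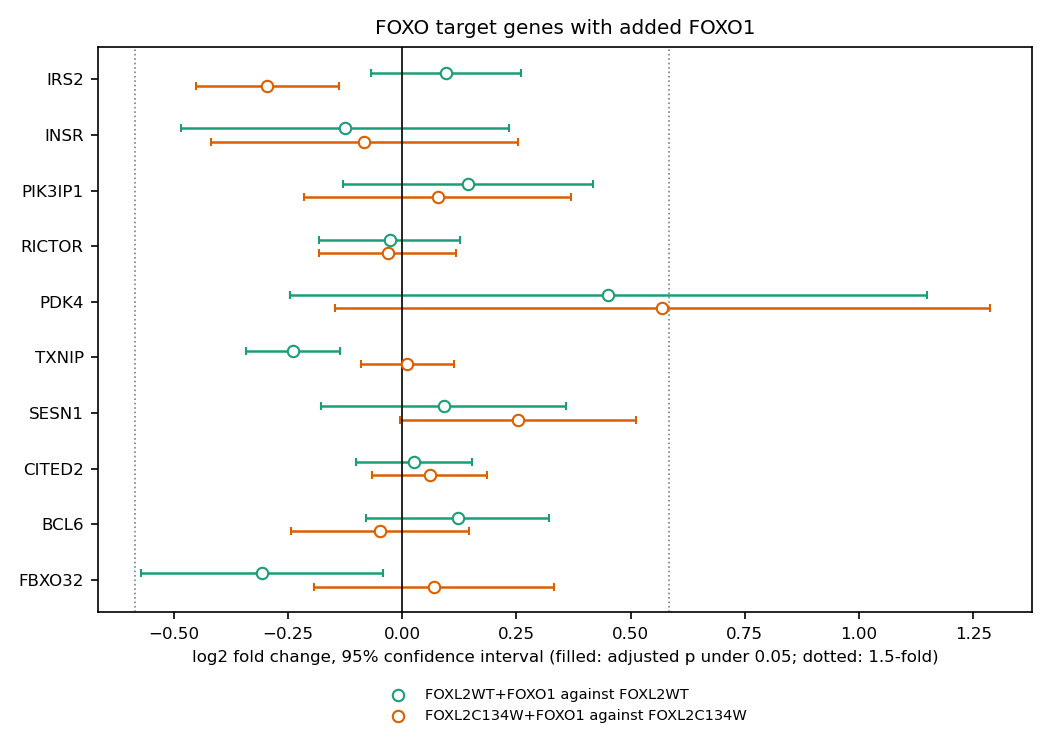
Log2 fold change of each member with added FOXO1 in the FOXL2WT setting (green) and in the FOXL2C134W setting (orange), with 95% confidence intervals. Open points did not pass an adjusted p under 0.05, which here is every point, and the dotted lines mark a 1.5-fold change in either direction.

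Averaging both settings gave no called member either, where 0.0216% of all genes, 3 genes, were called (FOXO1, SMAD3 and ATF3, of which ATF3 is named after its value was seen). At an unadjusted p under 0.05 were 2 of the 10 members, TXNIP at -0.11 and PDK4 at 0.51, and 977 genes, and DESeq2 called 0 members and 21 genes. The averaged adjusted p was 0.485 for TXNIP and 0.7 for PDK4. The difference of the FOXO1 effects between settings, mutant minus wild-type, was called for none of the members, where 1.38% of all genes were called, 192 genes, with 3 members and 1736 genes at an unadjusted p under 0.05. IRS2 had -0.39 with an adjusted p of 0.0844, TXNIP 0.25 with 0.0824 and FBXO32 0.38 with 0.396. DESeq2 called IRS2 and TXNIP here, among 365 genes. For IRS2 and TXNIP the call therefore depends on the test, and for all 3 genes the FOXO1 effects in the 2 settings were not shown to differ.

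The same was seen in a longer list of 55 other FOXO targets, of which 47 were tested. In the wild-type setting 0 of the 47 were called, with a median of -0.02, and in the mutant setting 1 was called, which is 2.13% of the list beside 0.714% of all genes. That gene was ULK1, the kinase that starts autophagy, at -0.37 ± 0.07 with an adjusted p of 0.0254. Among 23 genes of the insulin to AKT pathway 1 was called in the mutant setting, RPTOR, the subunit that defines mTOR complex 1, at -0.26 ± 0.06 with an adjusted p of 0.0348. Among 16 regulators and partners of FOXO proteins 1 was called there, CREBBP, an acetyltransferase and coactivator, at -0.53 ± 0.10 with an adjusted p of 0.0171. None of these 3 genes was higher with FOXO1. Their calls were not stable, since leaving out each of 6 libraries in turn left each of ULK1, RPTOR and CREBBP called in 2 of 6 cases. Adjusted p-values reached 0.21, 0.67 and 0.17 over all alternatives. Among 11 tested paralogs of the members none was called with FOXO1 in either setting, and of the other FOXO genes FOXO3, FOXO4 and FOXO6 none was called.

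Wild-type FOXL2 with SMAD3 was next set against Vectors. Of the 10 members 1 was called, CITED2, which was higher, where 6.07% of all genes were called in either direction and 2.46% as higher. CITED2, a coactivator that competes with HIF1A for CREBBP and EP300, had 166, 168 and 179 CPM in Vectors and 202, 203 and 195 CPM in FOXL2WT. The libraries did not overlap and the log2 change was 0.22 ± 0.06, 1.17-fold, with an adjusted p of 0.0345. The call was lost without 5 of the 6 libraries in turn and in DESeq2 with transcript length offsets, where the change was 0.29 with an adjusted p of 0.134. Over all alternatives the adjusted p of CITED2 lay between 0.00026 and 0.16. TXNIP differed by -0.15 with an adjusted p of 0.0708, IRS2 by 0.19 with 0.163 and FBXO32 by -0.28 with 0.174.

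The mutant FOXL2 gave more calls among the members. Against Vectors 4 of 10 were called, IRS2 higher and TXNIP, FBXO32 and PIK3IP1 lower, where 14.7% of all genes were called, 7.48% as higher and 7.24% as lower. Against FOXL2WT the same 4 genes were called in the same directions, where 11.2% of all genes were called, 7.13% as higher and 4.12% as lower. Both comparisons use the FOXL2C134W libraries. The member medians were -0.16 and -0.13 beside 0.00 and -0.01 for all genes.

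PIK3IP1 showed the largest fall among the members in both comparisons. It had 7.98, 5.54 and 6.44 CPM in Vectors, 5.43, 5.84 and 5.51 CPM in FOXL2WT and 3.88, 3.64 and 3.18 CPM in FOXL2C134W. Every mutant library lay below every Vectors and FOXL2WT library. The log2 change was -0.90 ± 0.13 against Vectors, 0.536-fold, with an adjusted p of 0.000138, and -0.64 ± 0.14 against FOXL2WT with an adjusted p of 0.00483. Both calls were kept under all 9 alternatives and without each of 6 libraries, with adjusted p-values no higher than 0.030. PIK3IP1 lies on chromosome 22, from 31281594 to 31292534 on the minus strand (hg38), and 2 protein-coding transcripts held 62.5% and 35.8% of its TPM.

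TXNIP, on chromosome 1 from 145992435 to 145996579, stood at 215, 202 and 206 CPM in Vectors and at 146, 147 and 162 CPM in FOXL2C134W, with FOXL2WT in between. It fell by 0.45 ± 0.05 on the log2 scale against Vectors, with an adjusted p of 7.26e-06, and by 0.30 ± 0.05 against FOXL2WT, with an adjusted p of 0.000683. These calls too were kept under all 9 alternatives and without each of 6 libraries. The 2 other members of its arrestin-domain family in the list, ARRDC2 and ARRDC3, both of which adapt membrane proteins to ubiquitin ligases, fell against Vectors by 0.39 and 0.50. Against FOXL2WT their changes ran from -0.24 to -0.20 and from -0.18 to -0.045 over all fits. There they were called under 3 and 2 of 9 alternatives, and each in 0 of 6 fits that left out 1 library.

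FBXO32 had 8.76, 8.85 and 8.72 CPM in Vectors and 4.47, 5.47 and 5.94 CPM in FOXL2C134W. It fell by 0.73 ± 0.12 against Vectors, with an adjusted p of 0.000394, and by 0.45 ± 0.12 against FOXL2WT, with an adjusted p of 0.0247. The latter call was lost without 5 of the 6 libraries in turn, with adjusted p-values up to 0.11. Of the TPM of FBXO32, 2 transcripts that keep an intron held 40.8% and 26.6%, and with transcript length offsets the fall against Vectors was -0.45 with an adjusted p of 0.13, the highest of all alternatives, which began at 6.7e-07. Its mean in Vectors was 1.36 times that in FOXL2C134W in TPM, in place of 1.66 times in CPM. In TPM the order changed too, with FOXL2WT at 6.00 above Vectors at 5.23 and FOXL2C134W at 3.86.

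IRS2 was the only member that rose with the mutant. It lies on chromosome 13, from 109752695 to 109786583 on the minus strand, with a single transcript in the annotation used. From 25.3, 24.3 and 28.3 CPM in Vectors it reached 36.7, 37.8 and 39.4 CPM in FOXL2C134W, above every library of the other 4 conditions. The rise was 0.54 ± 0.08 against Vectors, 1.46-fold, with an adjusted p of 9.54e-05, and 0.35 ± 0.08 against FOXL2WT, 1.27-fold, with an adjusted p of 0.00605. IRS2 has a transcript of 8156 bases, and with a correction for gene length the difference from FOXL2WT was 0.16 with an adjusted p of 0.199, in a range of 8.1e-05 to 0.20 over all alternatives, while the rise against Vectors was called under all 9 alternatives. The remaining 6 members were not called in either comparison, with differences between -0.48 for PDK4 and 0.12 for INSR and CITED2, and SESN1 at -0.27 against Vectors with an adjusted p of 0.16. With the correction for gene length RICTOR was called lower, at -0.18 against Vectors and -0.17 against FOXL2WT.

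**Figure D3:**
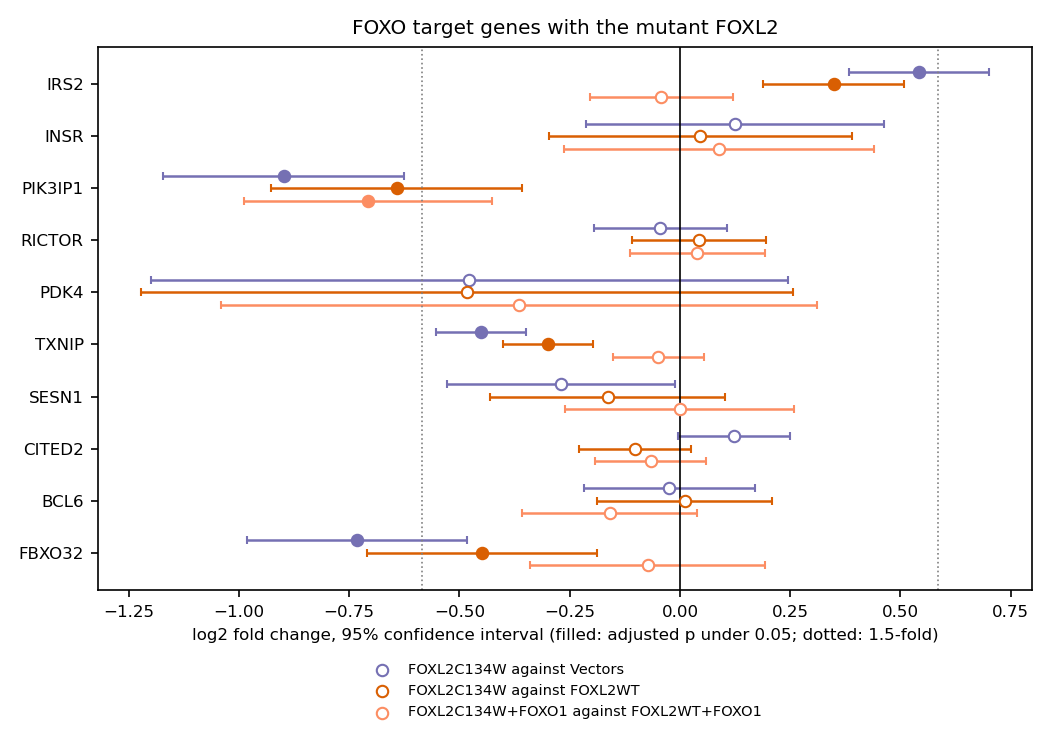
Log2 fold change of each member for FOXL2C134W against Vectors (purple), FOXL2C134W against FOXL2WT (dark orange) and FOXL2C134W+FOXO1 against FOXL2WT+FOXO1 (light orange), with 95% confidence intervals; filled points passed an adjusted p under 0.05 and dotted lines mark 1.5-fold. PIK3IP1 is filled in all 3 comparisons, and IRS2, TXNIP and FBXO32 lie close to 0 in the comparison with FOXO1.

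The mutant and wild-type settings could also be compared with FOXO1 present, in libraries that the comparison without FOXO1 did not use. This comparison was added after the values above were seen. Of the 10 members 1 was called, PIK3IP1, which was lower, where 0.144% of all genes were called, 20 genes, and 0.108% as lower. PIK3IP1 had 6.73, 5.94 and 5.92 CPM in FOXL2WT+FOXO1 and 3.74, 3.66 and 3.91 CPM in FOXL2C134W+FOXO1. Its log2 change was -0.71 ± 0.13 with an adjusted p of 0.0353, beside the -0.64 measured without FOXO1. The size ranged from -0.74 to -0.65 over all alternatives, but the call was lost without any of the 6 libraries, where adjusted p-values reached 0.17, and in DESeq2, which called none of the members among 141 genes. At an unadjusted p under 0.05 were 1 member and 1878 genes. IRS2, TXNIP and FBXO32 differed by -0.04, -0.05 and -0.07 with FOXO1, against 0.35, -0.30 and -0.45 without it. For TXNIP and FBXO32 the FOXL2WT+FOXO1 libraries overlapped those of both mutant conditions, and for IRS2 both FOXO1 conditions lay between Vectors and FOXL2C134W. The test of these changes is the difference of FOXO1 effects given above, which called none of them.

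Beyond the 10 members, the list of other FOXO targets moved with the mutant as well. Against Vectors 6 of 47 were called higher and 10 lower, which is 34.0% beside 14.7% of all genes, with a median of -0.06, and against FOXL2WT 2 were higher and 10 lower, which is 25.5% beside 11.2%, with a median of -0.09. This list was put together with earlier results of these data known, and the counts are a description. Among the genes called, the lowest 3 against Vectors were TNFSF10, a death receptor ligand, at -1.34 ± 0.12, SOD2, the mitochondrial superoxide dismutase, at -0.77 ± 0.07, and CCNG2, a cyclin that halts proliferation, at -0.67 ± 0.09. The highest 3 of those called were ANGPTL4, a lipoprotein lipase inhibitor, at 0.52 ± 0.10, IRS1, the paralog of IRS2, at 0.35 ± 0.08, and SESN2, the paralog of SESN1, at 0.28 ± 0.09. The first 5 of these 6 were called without each of 6 libraries, and SESN2 in 1 of 6 cases. TNFSF10, SOD2, CCNG2 and ANGPTL4 were called under all 9 alternatives. IRS1 and SESN2 were each called under 6 of 9, with adjusted p-values up to 0.15 and 0.13 over all fits. By role, among apoptosis genes 0 of 6 were higher and 2 lower, among cell cycle and DNA damage genes 1 of 9 was higher and 3 lower, among antioxidant genes 1 of 6 each way, among autophagy genes 0 of 10 higher and 2 lower, among metabolic genes 1 of 6 each way, and among signalling genes 3 of 10 were higher and 1 lower. Wild-type FOXL2 against Vectors called 4 of the 47 higher and 3 lower, which is 14.9% beside 6.07%.

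Some genes that control FOXO activity were called between the FOXL2 forms as well, in a comparison that called 7.13% of all genes as higher and 4.12% as lower. In the insulin to AKT pathway 5 of 23 were called higher and 2 lower in FOXL2C134W against FOXL2WT, among them RPTOR at 0.38 as higher and RHEB, the GTPase that activates mTOR complex 1, at -0.18 as lower, the latter kept without 3 of 6 libraries in turn. Among the 16 regulators and partners 3 were higher and 0 lower, CREBBP at 0.82, the related acetyltransferase EP300 at 0.51 and USP7, a deubiquitinase of FOXO proteins, at 0.28. RPTOR, EP300 and USP7 were each called under 8 of 9 alternatives, with adjusted p-values up to 0.50, 0.46 and 0.75. CREBBP was called under all 9. The difference of FOXO1 effects uses these same FOXL2C134W and FOXL2WT libraries, so for genes called between them it is not separate support. In edgeR's test of that difference 1.38% of all genes were called. Among them, the effect of FOXO1 on CREBBP, EP300, ULK1 and RPTOR was called lower in the mutant than in the wild-type setting. These calls were kept under 8, 8, 9 and 4 of 9 alternatives, in that order. Over all fits adjusted p-values reached 0.17, 0.86, 0.070 and 0.83. FOXO1 RNA also rose less in the mutant setting, with a log2 difference of -1.41, and the part of this was not tested.

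**Figure D4:**
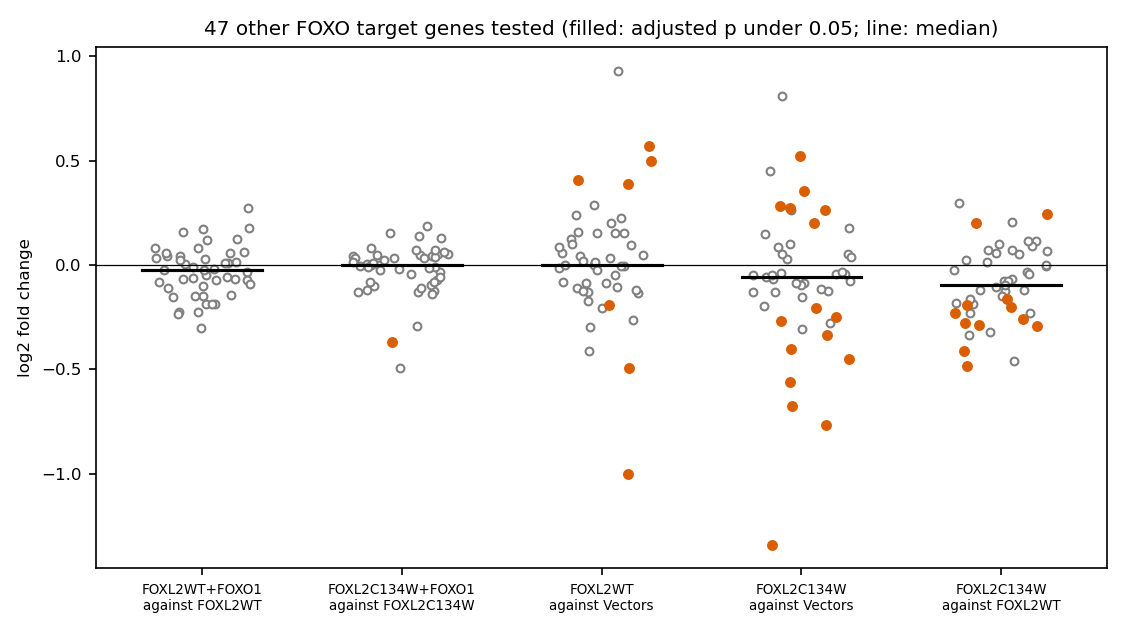
Log2 fold change of the 47 tested genes in the list of other FOXO targets (points, spread sideways only for legibility) in 5 comparisons; filled points passed an adjusted p under 0.05 and the line is the median. With FOXO1, 0 and 1 genes are filled, against 16 in FOXL2C134W against Vectors.

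The members did not vary together as a group. Over the 15 libraries, which share conditions, the log2 CPM of TXNIP and FBXO32 had the highest correlation of any member pair, with Pearson's r of 0.930, followed by TXNIP and PIK3IP1 at 0.683, while IRS2 and TXNIP had the lowest at -0.737. Among all genes tested the profile most like TXNIP was that of TRAF1, at 0.955, and the profile most like FBXO32 was that of ZC3HAV1, at 0.963, with HERC5 next at 0.940. PIK3IP1 was closest to KCTD2, at 0.941, and then to S1PR1, itself a FOXO target in the longer list, at 0.926. IRS2 was closest to MYADM, at 0.924, and RICTOR to PARP14, at 0.915. The best matches of INSR, SESN1, BCL6 and PDK4 were weaker, NFATC1 at 0.767, SLAIN2 at 0.822, TYRP1 at 0.850 and PHF7 at 0.850.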

How the data were processed

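The deposited gene table holds estimated counts that the authors made with Salmon 1.1.0 on hg38 transcripts, summed to genes and rounded. The deposited transcript files hold estimated counts and TPM of the same runs. Libraries were strand-specific. Gene counts were tested with edgeR 4.0.16 in R 4.3.3 (filterByExpr, TMM, quasi-likelihood F test), with all 15 libraries in 1 fit and 1 coefficient per condition, and p-values were adjusted by Benjamini-Hochberg over the 13868 genes tested. A gene was called at an adjusted p under 0.05. CPM used TMM library sizes, and log2 CPM, used for correlations and for the overlap of libraries, a prior count of 2. Fold changes came from the fit, without that prior count. TPM was summed over the transcripts of a gene. The study itself used DESeq2 on Salmon estimates imported with tximport. The closest setting here was DESeq2 1.42.0 with transcript length offsets. It called 918 genes for FOXL2C134W against Vectors and 709 against FOXL2WT, where the edgeR test called 2041 and 1560. Other alternatives were DESeq2 without offsets, a gene length offset in edgeR, other filters and other scaling. A replicate block, the compared groups alone and leaving out each library were used too. Scripts were tested on simulated data. Promoters came from RefSeq (GRCh38.p14) and gene positions from GENCODE. The members and lists were chosen with earlier results of these data known. Named genes were the members, the transfected genes, list genes called with FOXO1 (the 3 highest and lowest where more were called) and the closest profiles of each member, of which 1 is not reported here. ARRDC2, ARRDC3, RHEB, USP7 and the list genes named in the comparisons without FOXO1 were chosen after their values were seen. Depth of 14962245 to 25339094 reads a library limits precision for genes such as PDK4.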

Additional observations from a re-analysis of the deposited data

Results flagged for a closer look

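No member was singled out here, and 7 other genes named in the text were, because the FOXO1 effect in FOXL2C134W minus that in FOXL2WT passed an adjusted p under 0.05 in edgeR's quasi-likelihood test. The difference was -0.87 ± 0.14 (log2, SE) for CREBBP (adjusted p 0.0065), -0.49 ± 0.10 for EP300 (0.024), -0.54 ± 0.11 for ULK1 (0.017) and -0.34 ± 0.08 for RPTOR (0.048). Leaving out each of 12 libraries in turn kept the call 12, 6, 8 and 3 times for these genes in that order. The 9 alternatives kept it 8, 8, 9 and 4 times. The transfected genes differed likewise, by -1.41 ± 0.13 for FOXO1, 0.41 ± 0.07 for SMAD3 and 0.60 ± 0.13 for FOXL2. The call of FOXL2 was kept in 3 of 12 fits that left out 1 library and under 8 of 9 alternatives. The call of SMAD3 was kept in 12 of 12 such fits and under 8 of 9 alternatives. Over all alternatives the SMAD3 difference ranged down to 0.054, with an adjusted p up to 0.95.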

How the results depend on the processing

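The calls of TXNIP and PIK3IP1 in FOXL2C134W against Vectors and against FOXL2WT held under every alternative and without each library. Results that moved follow, with log2 changes in parentheses. With DESeq2, members called were 1 for FOXO1 in FOXL2WT, 1 for FOXO1 in FOXL2C134W, 2 for the difference of effects, 2 for FOXL2WT against Vectors and 0 for the mutant against the wild type with FOXO1, and genes called were 63 for FOXO1 in FOXL2WT, 215 for FOXO1 in FOXL2C134W, 21 for the averaged effect, 365 for the difference of effects and 141 for the mutant against the wild type with FOXO1. The sign turned there for PDK4 (-0.0051) for FOXL2WT against Vectors and SESN1 (0.0033) for the mutant against the wild type with FOXO1. With transcript length offsets in DESeq2, members called were 1 for FOXO1 in FOXL2WT and 0 for FOXL2WT against Vectors, and genes called were 64 for FOXO1 in FOXL2WT, 58 for FOXO1 in FOXL2C134W, 44 for the averaged effect, 113 for the difference of effects, 454 for FOXL2WT against Vectors, 918 for FOXL2C134W against Vectors, 709 for FOXL2C134W against FOXL2WT and 66 for the mutant against the wild type with FOXO1. The sign turned there for CITED2 (-0.078) and BCL6 (-0.080) for FOXO1 in FOXL2WT, INSR (0.13) for FOXO1 in FOXL2C134W, CITED2 (-0.021) and BCL6 (-0.27) for the averaged effect, PDK4 (-0.19) and SESN1 (-0.064) for the difference of effects, INSR (-0.29), PDK4 (-0.13), BCL6 (0.37) and FBXO32 (0.22) for FOXL2WT against Vectors, INSR (-0.17), BCL6 (0.40) and RICTOR (0.0051) for FOXL2C134W against Vectors and FBXO32 (0.19) for the mutant against the wild type with FOXO1. When genes needed only 1 count in any library, members called were 1 for FOXO1 in FOXL2WT, 1 for FOXO1 in FOXL2C134W, 2 for the difference of effects and 2 for FOXL2WT against Vectors, and genes called were 260 for FOXO1 in FOXL2WT, 463 for FOXO1 in FOXL2C134W, 133 for the averaged effect, 551 for the difference of effects, 1345 for FOXL2WT against Vectors and 446 for the mutant against the wild type with FOXO1. The sign turned there for RICTOR (5.4e-05) for the difference of effects and SESN1 (0.0057) for the mutant against the wild type with FOXO1. Under a gene length offset, members called were 1 for FOXO1 in FOXL2WT, 1 for the difference of effects and 3 for FOXL2WT against Vectors, and genes called were 26 for FOXO1 in FOXL2WT, 5 for the averaged effect and 48 for the mutant against the wild type with FOXO1. The sign turned there for RICTOR (0.065) for FOXO1 in FOXL2C134W, RICTOR (0.0020) for the averaged effect, RICTOR (0.13) for the difference of effects, INSR (-0.087), BCL6 (-0.020), RICTOR (-0.17) and IRS1 (-0.14) for FOXL2C134W against FOXL2WT and RICTOR (-0.041) for the mutant against the wild type with FOXO1. In the block with a gene length offset, members called were 1 for FOXO1 in FOXL2WT, 1 for the difference of effects and 3 for FOXL2WT against Vectors, and genes called were 22 for FOXO1 in FOXL2WT and 40 for the mutant against the wild type with FOXO1. The sign turned there for RICTOR (0.064) for FOXO1 in FOXL2C134W, RICTOR (0.0013) for the averaged effect, RICTOR (0.13) for the difference of effects, INSR (-0.073), BCL6 (-0.024), RICTOR (-0.17) and IRS1 (-0.14) for FOXL2C134W against FOXL2WT and RICTOR (-0.042) for the mutant against the wild type with FOXO1. When genes needed 10 counts in every library, members called were 1 for FOXO1 in FOXL2C134W, and genes called were 13 for FOXO1 in FOXL2WT, 170 for FOXO1 in FOXL2C134W and 32 for the mutant against the wild type with FOXO1. In fits of the compared groups alone, members called were 2 for FOXL2WT against Vectors and 0 for the mutant against the wild type with FOXO1, and genes called were 14 for FOXO1 in FOXL2WT, 32 for FOXO1 in FOXL2C134W, 1690 for FOXL2WT against Vectors and 9 for the mutant against the wild type with FOXO1. With the replicate letter as a block, the sign turned for PDK4 (-0.0083) for FOXL2WT against Vectors and SESN1 (0.0067) for the mutant against the wild type with FOXO1. Scaled by the size factors of DESeq2, the sign turned for SESN1 (1.3e-06) for the mutant against the wild type with FOXO1. Leaving out 1 library at a time, members called ranged from 0 to 1 for FOXO1 in FOXL2C134W, from 0 to 1 for the difference of effects, from 0 to 1 for FOXL2WT against Vectors and from 0 to 0 for the mutant against the wild type with FOXO1. In the same fits, genes called ranged from 2 to 7 for FOXO1 in FOXL2WT, from 5 to 355 for FOXO1 in FOXL2C134W, from 3 to 13 for the averaged effect, from 45 to 423 for the difference of effects, from 305 to 662 for FOXL2WT against Vectors, from 1275 to 2126 for FOXL2C134W against Vectors, from 772 to 2120 for FOXL2C134W against FOXL2WT and from 7 to 20 for the mutant against the wild type with FOXO1. The sign turned in some of these fits for INSR (-0.28 to 0.042), CITED2 (-0.016 to 0.053), SESN1 (-0.027 to 0.18) and RICTOR (-0.076 to 0.053) for FOXO1 in FOXL2WT, INSR (-0.22 to 0.016), TXNIP (-0.022 to 0.062), CITED2 (-0.0012 to 0.13), BCL6 (-0.12 to 0.052), FBXO32 (-0.048 to 0.16) and RICTOR (-0.11 to 0.021) for FOXO1 in FOXL2C134W, BCL6 (-0.00066 to 0.087) and RICTOR (-0.067 to 0.0074) for the averaged effect, INSR (-0.13 to 0.19), PDK4 (-0.11 to 0.34), CITED2 (-0.026 to 0.11) and RICTOR (-0.091 to 0.049) for the difference of effects, INSR (-0.089 to 0.23), PDK4 (-0.18 to 0.21) and BCL6 (-0.089 to 0.010) for FOXL2WT against Vectors, BCL6 (-0.056 to 0.050) and RICTOR (-0.076 to 0.024) for FOXL2C134W against Vectors, INSR (-0.10 to 0.22) and BCL6 (-0.021 to 0.086) for FOXL2C134W against FOXL2WT and INSR (-0.042 to 0.18), SESN1 (-0.12 to 0.12), FBXO32 (-0.19 to 0.040) and RICTOR (-0.040 to 0.10) for the mutant against the wild type with FOXO1. The call of PIK3IP1 with FOXO1 was lost without any of its 6 libraries, and that of CITED2 in FOXL2WT against Vectors without 5 of 6. The cause of these changes was not tested. Libraries with the same letter did not deviate together (correlations from -0.164 to 0.166, 2 of 30 above 0.1), so the letters do not pair them, and the block left the counts of members called as they were. The intervals of PDK4 leave room for a rise of up to 1.15 and 1.29 on the log2 scale with FOXO1. In TPM in place of CPM, the fold between the conditions highest and lowest in CPM stayed within the spread for every member but FBXO32.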
